A study of Mus musculus with 28 samples.

Results

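The Slit ligands and Robo receptors described here are the genes Slit1, Slit2, Slit3, Robo1 and Robo2, 5 of the 41549 genes counted in nuclei sorted from mouse motor cortex. The members were selected by gene symbol, with their levels in these libraries already known, so their levels and differences are given as a description without a test. Motor cortex nuclei of 7 mice were profiled, each injected on the left with AAV-Cas9-miR-124-empty and on the right with AAV-Cas9-miR-124-g4, adeno-associated viral vectors for the nuclease Cas9. Fixed nuclei stained for the HA tag were sorted, and nuclear RNA was counted in 4 groups of 7 libraries: HA-positive and HA-negative nuclei of the side with the empty vector, and the same for g4. The sample titles call the HA-positive nuclei Cas9 positive and the HA-negative nuclei Cas9 negative. All nuclei, HA-negative ones included, came from injected cortex, every animal contributed to all 4 groups, and vector and hemisphere coincided, so that the effects of vector and side cannot be told apart. The sources used here do not give the strain, the age, the promoter that drives Cas9 or the meaning of g4.

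Slits are secreted proteins that bind Robo receptors on growing axons and migrating neurons and usually repel them. Robo receptors have no enzymatic activity of their own and act through cytoplasmic partners such as the srGAP proteins, which regulate the cytoskeleton. In the developing cortex Slit and Robo proteins steer callosal and corticofugal axons, interneuron migration and dendrite growth, and the genes stay expressed in adult neurons.

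The Slit and Robo genes are also tied to microRNAs. The hairpin gene Mir218-1 (GRCm38 chr5:48223942-48224051, plus strand) lies in an intron of Slit2, and Mir218-2 (chr11:35616816-35616925, plus strand) lies in an intron of Slit3. Both give the same 5p microRNA and different 3p microRNAs, shown here as RefSeq lists them on GRCm38.p6, with the seed (bases 2 to 8) in capitals. The 5p sequence is shown because its seed matches lie in the 3' untranslated regions (UTRs) of the members.
miR-218-5p, from both hairpins: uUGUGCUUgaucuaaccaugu
miR-218-1-3p, from the Slit2 intron: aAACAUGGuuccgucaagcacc
miR-218-2-3p, from the Slit3 intron: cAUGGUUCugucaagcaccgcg
Both hairpin genes were at 0 counts in all 28 libraries, and counts of a hairpin gene do not measure the mature microRNA.

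The longest annotated 3' UTR of each member was searched on the transcript strand for sites of miR-124, the microRNA in the vectors' names, and of miR-218-5p. The miR-124 motifs were GTGCCTT (7mer-m8), TGCCTTA (7mer-A1) and GTGCCTTA (8mer), and the miR-218-5p motifs were AAGCACA (7mer-m8), AGCACAA (7mer-A1) and AAGCACAA (8mer). An 8mer contains both of its 7mers and was counted once. The sites found are printed with flanking bases, 5' to 3' on the transcript strand, with the match in capitals, because the members differ in which of them they hold.
Slit1, miR-124 7mer-m8: tgccatgccctctctcaaaGTGCCTTgcac
Slit2, miR-124 7mer-A1: agtcttctttgagcctcacTGCCTTAgctt
Slit2, miR-218-5p 7mer-m8: aacacgccaatactagcagAAGCACAtcta
Slit2, miR-218-5p 7mer-A1: agttcccaaggacacatcgAGCACAAgtgt
Slit2, miR-218-5p 7mer-m8: agccagataattattagcaAAGCACAtaaa
Robo1, miR-218-5p 8mer: ttttttttttggttttaaAAGCACAAtcac
Robo2, miR-218-5p 8mer: gcgattttatttggtgatAAGCACAAatct
Robo2, miR-218-5p 7mer-m8: gtgtagtcacggcagacccAAGCACAgctt
The miR-124 match of Slit1 (chr19:41600294-41600300, minus strand) covers bases 1169 to 1175 of a UTR of 1212 bases, close to its end. The 8mers of the receptors lie at chr16:73045348-73045355 (plus strand) for Robo1 and at chr16:73895358-73895365 (minus strand) for Robo2. No motif was present in the 365-base UTR of Slit3, and the UTRs of Robo1 and Robo2 held no miR-124 motif. A miR-124 motif was present in 19.7% and a miR-218-5p motif in 18.7% of all 21008 3' UTRs searched, and an 8mer in 2.69% and 3.93%. Long UTRs hold more matches. Among UTRs of 0.8 to 1.25 times the member's length, a miR-124 motif was present in 20.3% for Slit1 and 42.1% for Slit2, and a miR-218-5p motif in 45.4% for Slit2, 24.6% for Robo1 and 49.8% for Robo2. Where no motif was found, the shares were 25.4% for Robo1 and 47.3% for Robo2 (miR-124), 16.7% for Slit1 (miR-218-5p), and 7.16% and 4.82% for Slit3 (miR-124 and miR-218-5p). A match of letters is a description of the sequence and not of binding.

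**Figure D1:**
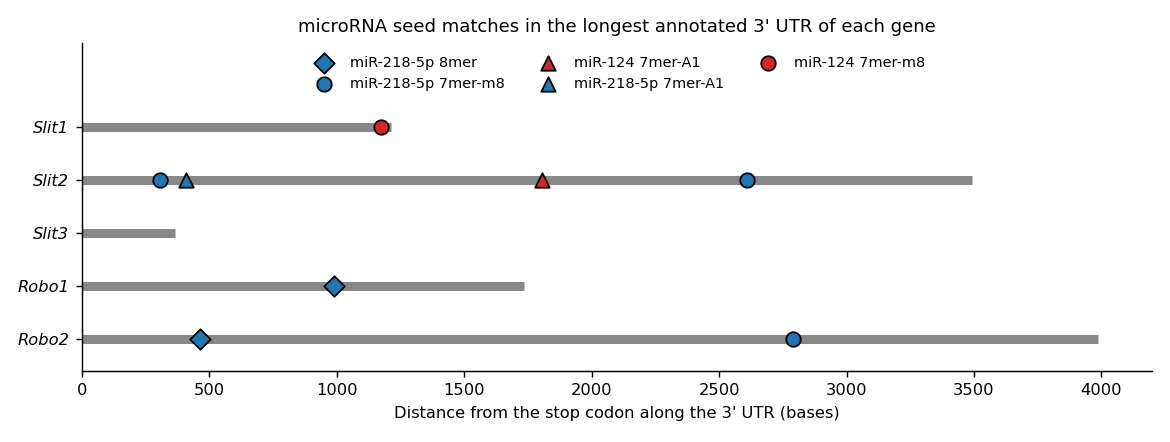
Positions of the seed matches along the members' longest annotated 3' UTRs, with the distance from the stop codon in bases on the horizontal axis. Slit1 holds 1 miR-124 match near its end, Slit2 holds matches of both microRNAs, Robo1 and Robo2 hold miR-218-5p matches, and Slit3 holds no match.

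Libraries were shallow, at 248612 to 902944 counts and 8687 to 13668 genes detected. Fewest genes were detected in the empty HA-positive libraries (10376 ± 1372, SD, n = 7), against 11885 ± 1380 in the g4 HA-positive group and, among HA-negative libraries, 12482 ± 624 with the empty vector and 12479 ± 858 with g4. The HA-positive libraries with under 10000 genes were those of mice 17, 21 and 22 with the empty vector and of mouse 18 with g4. Neuronal markers were present in every group. The 16 inhibitory neuron markers summed to 4073 ± 465 CPM (counts scaled to the library total, with edgeR's TMM factors) in empty and 3495 ± 704 in g4 HA-positive libraries, against 1478 ± 143 and 1403 ± 188 in the HA-negative ones. The summed 10 excitatory neuron markers were 1435 ± 403, 1695 ± 272, 2074 ± 267 and 2076 ± 236 CPM in the same order. The g4 HA-positive library of mouse 19 stood apart, with 1544 CPM of oligodendrocyte markers against at most 228 in the other g4 HA-positive libraries, and 334 CPM of microglial markers against at most 42.2. Results for Slit1 are therefore also given without it.

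Slit1 (ENSMUSG00000025020; GRCm38 chr19:41600257-41743665, minus strand) encodes a Slit ligand expressed mainly in the nervous system, and it was the member that differed most between the groups. In empty HA-positive libraries its level was 5.06 CPM at the lowest, 20.8 at the median and 30.3 at the highest (19.5 ± 8.34, n = 7). In g4 HA-positive libraries these values were 25.7, 52.2 and 105 CPM (59.1 ± 25.3, n = 7). In 6 of the 7 g4 libraries Slit1 lay above every empty one, and the g4 library of mouse 17 was the only g4 library inside the empty range. The HA-negative groups lay between, at 23.8, 40.6 and 80.5 CPM with the empty vector (42.3 ± 18.3) and 29.5, 37.6 and 65.9 CPM with g4 (42.6 ± 13.7). Slit1 thus had its lowest mean in empty HA-positive nuclei and its highest in g4 HA-positive nuclei, and the groups overlapped. These levels rest on few counts, 2 to 15 per library and 58 in all with the empty vector, and 13 to 55 per library and 225 in all with g4, among HA-positive nuclei.

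**Figure D2:**
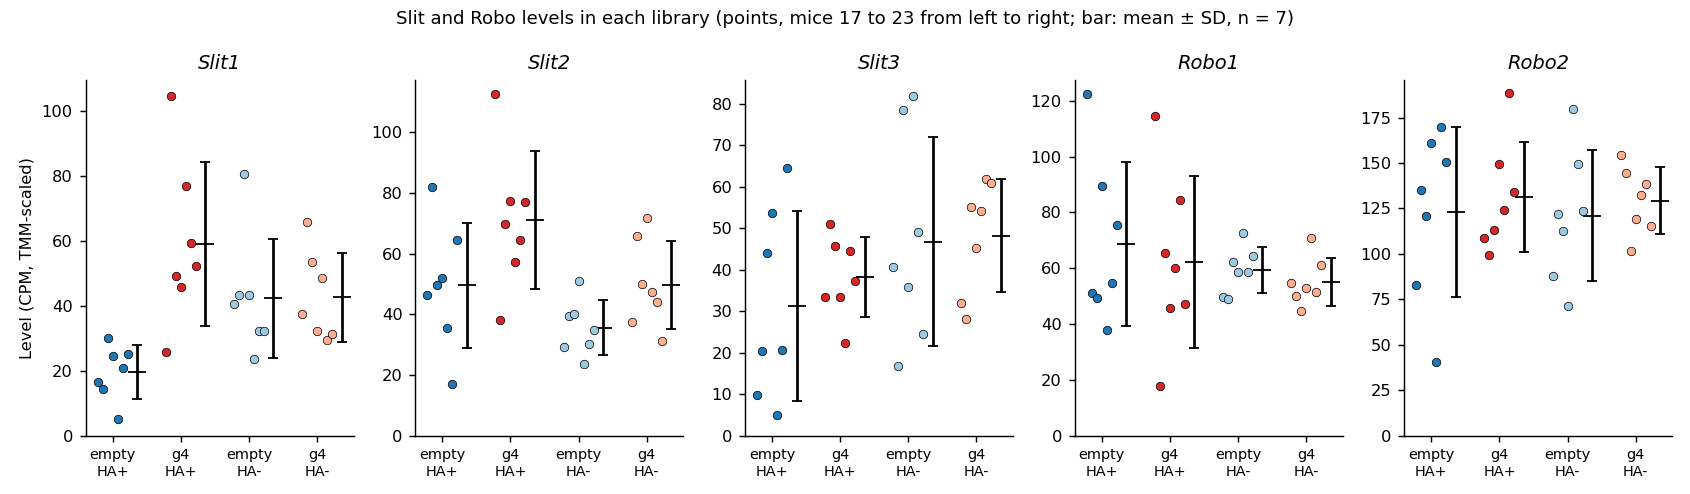
Level of each member in CPM on the vertical axis, 1 point per library, in the 4 groups, with the mean and SD of 7 libraries. Slit1 is lowest in empty HA-positive libraries (19.5 ± 8.34 CPM) and highest in g4 HA-positive libraries (59.1 ± 25.3 CPM), while the Robo2 groups range in mean from 121 to 131 CPM.

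Within animals, Slit1 was higher on the g4 than on the empty side in HA-positive nuclei of 7 of 7 mice. The fitted log2 difference was 1.56 ± 0.40 (SE), a 2.95-fold difference. This value and all others given with an SE come from fits without a term for the animal, so they ignore the pairing. In HA-negative nuclei Slit1 was higher on the g4 side in 2 of 7 mice and the log2 difference was 0.00 ± 0.28. The difference between these vector effects was 1.56 ± 0.48. In empty-vector cortex Slit1 was lower in HA-positive than in HA-negative nuclei of 7 of 7 mice (log2 difference -1.05 ± 0.40), and in g4 cortex it was higher in 5 of 7 (0.50 ± 0.29). The empty HA-positive libraries enter both the vector comparison and the empty-vector comparison of fractions, so these differences are not independent. In bulk nuclei, fewer nuclei of a type and less RNA per nucleus cannot be told apart.

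**Figure D3:**
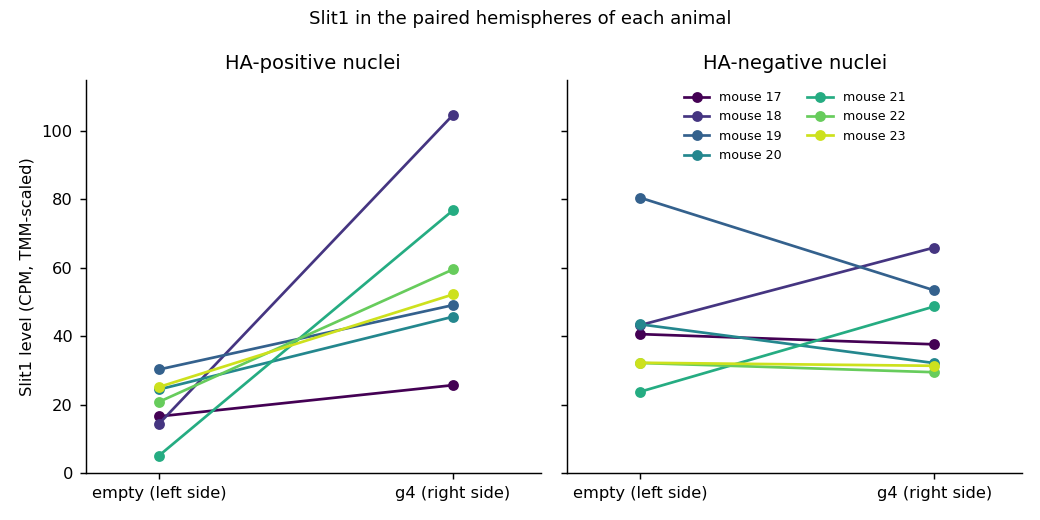
Slit1 level in CPM on the vertical axis for each of the 7 mice, with a line joining the empty and g4 libraries of the same mouse, in HA-positive and in HA-negative nuclei. The g4 end is the higher one in 7 of 7 lines for HA-positive nuclei and in 2 of 7 for HA-negative nuclei.

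The Slit1 difference in HA-positive nuclei had the same sign under all 14 alternative analyses, which refit these same libraries and are no independent support. It was 1.61 ± 0.42 without the g4 HA-positive library of mouse 19, and ranged from 1.25 to 1.74 when 1 mouse at a time was left out. It was smallest, at 1.12 ± 0.38, without the 4 HA-positive libraries under 10000 genes, where Slit1 was at 23.5 ± 6.65 CPM (n = 4) with the empty vector and 51.5 ± 16.8 (n = 6) with g4. Other measures moved with the same groups. The summed astrocyte markers were at 925 ± 272 CPM (707 to 1325) in empty and 1432 ± 469 (975 to 2408) in g4 HA-positive libraries, with 0 of 9 markers at 0 throughout, and at 1394 ± 141 and 1451 ± 203 in the HA-negative groups. The g4 HA-positive library of mouse 21 was the highest of its group, with the next at 1518 CPM. The inhibitory neuron markers were higher with g4 for 3 of 14 tested, with a median log2 difference of -0.29, and the astrocyte markers for 5 of 6, with a median of 0.54, against -0.01 over all 5011 genes tested. Excitatory neuron markers were higher for 7 of 9 (median 0.14) and cortical layer markers for 5 of 9 (0.19). Striatal neuron markers were higher for 1 of 3 (-0.21) and oligodendrocyte markers for 2 of 2 (1.84, with the library of mouse 19 included). By edgeR 0 markers of these lists passed the test in this comparison. At an unadjusted p under 0.05 were 4 of the 14 inhibitory neuron, 1 of the 6 astrocyte, 2 of the 9 excitatory neuron and 1 of the 2 oligodendrocyte markers, beside 335 of all 5011 genes. DESeq2, which called 0.22% of all genes here, called the inhibitory neuron markers Gad2 and Reln lower with g4 and 0 markers of the other lists. The part of these marker differences, and of the number of genes detected, in the Slit1 result was not tested.

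Slit2 (ENSMUSG00000031558; chr5:47983138-48307733, plus strand) encodes the Slit ligand best known for guiding callosal and corticofugal axons. It was at 17.0, 49.5 and 82.1 CPM (lowest, median and highest) in empty HA-positive libraries and at 38.3, 69.8 and 113 in g4 HA-positive ones. In HA-negative libraries it was at 23.8, 34.8 and 51.1 CPM with the empty vector and at 31.3, 47.3 and 71.8 with g4. Slit2 was therefore higher on the g4 side in both fractions, by 0.47 ± 0.31 in HA-positive and 0.47 ± 0.27 in HA-negative nuclei (log2), in 6 of 7 mice in each. The HA-positive difference ranged from 0.32 to 0.72 when 1 mouse at a time was left out. Without the HA-positive libraries under 10000 genes it was 0.27, with 62.1 ± 14.9 CPM (n = 4) in empty and 76.4 ± 19.3 (n = 6) in g4 libraries. The vector effects of the fractions differed by 0.01 ± 0.44, an interval that holds both no difference and a sizeable one. Slit2 was also higher in HA-positive than in HA-negative nuclei, by 0.53 ± 0.33 with the empty vector and 0.53 ± 0.25 with g4, again in 6 of 7 mice in each. This order of fractions is opposite to that of Slit1 with the empty vector, and all groups overlapped.

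Slit3 (ENSMUSG00000056427; chr11:35121224-35708507, plus strand) encodes the third Slit ligand, widely expressed outside the nervous system too. It was at 5.06, 20.8 and 64.6 CPM in empty HA-positive libraries and at 22.3, 37.3 and 51.1 in g4 HA-positive ones. HA-negative libraries gave 16.9, 40.6 and 82.0 CPM with the empty vector and 28.3, 54.2 and 61.8 with g4. The spread within the empty groups was as wide as the difference between any groups. The g4 minus empty log2 difference was 0.26 ± 0.43 in HA-positive nuclei (higher in 5 of 7 mice) and 0.04 ± 0.28 in HA-negative nuclei (4 of 7). Without the HA-positive libraries under 10000 genes, the HA-positive difference turned to -0.34 ± 0.36, with 45.7 ± 18.8 CPM (n = 4) against 36.2 ± 8.62 (n = 6). HA-positive minus HA-negative, Slit3 differed by -0.55 ± 0.43 with the empty vector and -0.35 ± 0.28 with g4. Of the members, its level followed the number of genes detected most closely (Pearson r 0.600 of the log2 values over 28 libraries, against 0.443 for Robo2, 0.400 for Slit1, 0.252 for Robo1 and 0.105 for Slit2), in libraries that share animals and depth.

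Robo1 (ENSMUSG00000022883; chr16:72308306-73046095, plus strand) encodes a receptor of axons and migrating interneurons. It was at 37.9, 54.8 and 122 CPM in empty HA-positive libraries and at 17.9, 60.0 and 114 in g4 HA-positive ones. In HA-negative libraries it kept to a narrower range, 48.9, 58.8 and 72.5 CPM with the empty vector and 44.8, 52.9 and 70.9 with g4. The g4 minus empty log2 difference was -0.19 ± 0.32 in HA-positive nuclei, with g4 higher in 3 of 7 mice, and -0.12 ± 0.21 in HA-negative nuclei, with g4 higher in 2 of 7. Neither difference exceeded its SE, and the HA-positive one was 0.04 ± 0.29 without the libraries under 10000 genes. HA-positive minus HA-negative, Robo1 differed by 0.25 ± 0.27 and 0.17 ± 0.27 with the empty vector and g4.

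Robo2 (ENSMUSG00000052516; chr16:73891839-74411825, minus strand) encodes the other main neuronal Slit receptor and was the member with the most counts. It was at 40.5, 135 and 170 CPM in empty HA-positive libraries, where the lowest value was that of mouse 21, and at 99.6, 124 and 188 in g4 HA-positive ones. HA-negative libraries gave 71.6, 122 and 179 CPM with the empty vector and 102, 132 and 154 with g4. Robo2 differed little between any groups: the log2 differences were 0.03 ± 0.23 and 0.06 ± 0.17 for g4 minus empty in HA-positive and HA-negative nuclei and 0.07 ± 0.24 and 0.03 ± 0.16 for HA-positive minus HA-negative with the empty vector and g4. All 4 differences were smaller than their SE, which leaves room for a modest change in either direction.

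**Figure D4:**
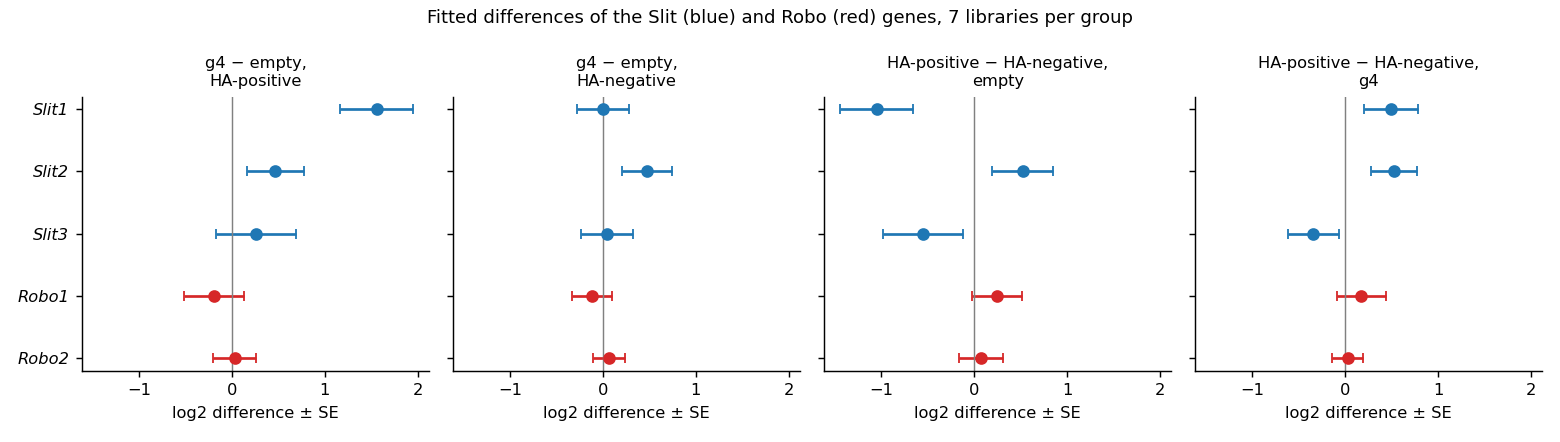
Fitted log2 difference (horizontal axis, points) with its SE (bars) for each member in the comparisons of vectors and of fractions. Slit1 stands at 1.56 for g4 minus empty in HA-positive nuclei and at 0.00 in HA-negative nuclei, and the Robo1 and Robo2 points lie between -0.19 and 0.25.

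All 5 members had enough counts to be tested in each comparison, which is counted here only beside the background of all genes. In edgeR's quasi-likelihood test at a Benjamini-Hochberg adjusted p under 0.05, 0 of 5 were called for g4 against empty in HA-positive nuclei, where 0.0599% of 5011 genes were called (0.02% higher and 0.0399% lower). The share of all genes called was 0% of 6262 for the vectors in HA-negative nuclei, 7.01% of 5538 and 6.4% of 6264 for HA-positive against HA-negative nuclei with the empty vector and g4, and 0% of 7197 for the difference between vector effects, and 0 of 5 members were called in each. For the comparisons with 0 genes called, 236 and 359 genes had an unadjusted p under 0.05, and DESeq2 called 1 and 0 genes. Among the members, 1 had an unadjusted p under 0.05 in each comparison except that of the vectors in HA-negative nuclei, where 0 had one. Over all genes, 335 had one for the vectors in HA-positive nuclei, and 1065 and 1089 for the fractions with the empty vector and g4. DESeq2 called 0 members in all 5 comparisons, and a single edgeR fit of all 4 groups called Slit1 for the vectors in HA-positive nuclei and for the fractions with the empty vector, where that fit called 0.111% and 8.5% of 7197 genes. Since the members were chosen with these values known, nothing is read from these counts.

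Levels of different genes were compared per kilobase of exon, and the order depended on the gene model. How reads were counted is not given, so whether counts of these genes scale with exon length is not known. Over merged exons, CPM per kilobase in empty HA-positive nuclei were 7.25 for Robo2, 5.15 for Slit3, 4.16 for Robo1, 3.29 for Slit1 and 1.95 for Slit2. In g4 HA-positive nuclei they were 9.98 for Slit1, 7.72 for Robo2, 6.31 for Slit3, 3.76 for Robo1 and 2.79 for Slit2. Slit1 thus stood near the bottom of the first order and at the top of the second. In HA-negative nuclei Slit3, Slit1 and Robo2 lay within 7.12 to 7.95 in both vector groups, closer together than their SDs, with Robo1 at 3.59 and 3.34 and Slit2 at 1.40 and 1.96. Over the longest transcript, which is much shorter than the merged exons for Slit2, Robo1 and Robo2, Robo2 was the highest member in all 4 groups, at 14.1 to 15.3 CPM per kilobase.

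Within the ligands, Slit1 made up 33.3 ± 9.02% of the summed Slit level per kilobase of merged exons in empty HA-positive libraries and 50.6 ± 12.7% in g4 HA-positive ones, with 44.9 ± 12.7% and 41.9 ± 10.9% in the HA-negative libraries of the empty and g4 vectors. It was the highest Slit in 2, 6, 5 and 2 of 7 libraries in that order. Robo2 was at 62.5 ± 12.8%, 68.6 ± 11.5%, 65.6 ± 6.11% and 69.4 ± 3.85% of the summed Robo level in the same order, a narrower range of means than that of Slit1. A share of this kind rests on the same division by exon length. It also moves with every gene in the sum, and the Slit3 share was 43.8% in empty and 33.5% in g4 HA-positive libraries.

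The other Robo receptors were scarce. Robo3, a receptor of commissural axons, had means of 9.28, 5.86, 6.43 and 1.56 CPM in the 4 groups, in the order HA-positive with empty and g4, then HA-negative with empty and g4, with 9 of the 28 libraries at 0. Robo4, known from endothelial cells, had 3 counts in 1 library and 0 in the other 27. Of the 6 endothelial markers, 4 and 2 were at 0 throughout the HA-positive libraries with empty and g4, and 3 and 0 throughout the HA-negative ones. Together these markers summed to means of 17.4, 15.5, 22.0 and 16.8 CPM in that order.

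Of 41 other genes of the pathway (other receptors, surface partners, cytoplasmic effectors and the hairpin genes), 28 and 32 had enough counts for the vector comparison in HA-positive and HA-negative nuclei. None was called in either by edgeR or DESeq2, against a share of called genes of 0.0599% and 0% over all genes. At an unadjusted p under 0.05 were 1 and 0 of them, beside 335 of 5011 and 236 of 6262 over all genes. The median log2 differences of the pathway genes were 0.09 and 0.01, against -0.01 and -0.00 over all genes. For the difference between vector effects 0 of 34 were called, with 0 at an unadjusted p under 0.05, beside 359 of all 7197 genes. Between HA-positive and HA-negative nuclei, 1 gene was called higher and 1 lower of 32 tested with the empty vector, and 3 higher and 1 lower of 33 with g4, where 3.5% and 3.5%, and 3.32% and 3.08%, of all genes were called higher and lower. DESeq2, which called 8.92% and 7.28% of all genes in these comparisons, called 2 higher and 1 lower with the empty vector and 4 higher and 1 lower with g4, with Enah as the added gene in both. Their edgeR medians of -0.01 and 0.01 were near the 0.01 and 0.01 of all genes.

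Srgap3, which encodes an srGAP that binds Robo receptors and acts on Rac, was the pathway gene with the clearest difference between fractions. Its lowest, median and highest levels were 270, 366 and 415 CPM in empty HA-positive libraries and 158, 212 and 237 CPM in empty HA-negative ones. In g4 libraries they were 269, 315 and 387 CPM in HA-positive and 134, 183 and 229 CPM in HA-negative nuclei. The fractions did not overlap with either vector, and Srgap3 was higher in HA-positive nuclei of 7 of 7 mice. The share of all genes that separated in this way was not counted. The log2 differences were 0.83 ± 0.14 (edgeR adjusted p 0.000124) and 0.75 ± 0.14 (0.000415), and both calls held under every alternative run. The related Srgap2 did not pass the test and had means of 73.5 and 70.0 CPM in HA-positive libraries with empty and g4 and of 79.6 and 71.9 CPM in HA-negative ones. Srgap1 had means of 13.5, 14.0, 34.2 and 25.9 CPM in that order, lower in HA-positive nuclei of 6 of 7 mice with each vector, and did not pass the test (log2 difference -1.38 ± 0.57, edgeR adjusted p 0.164, and -0.88 ± 0.42, adjusted p 0.268).

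Dcc, which encodes the netrin receptor that Robo1 can bind and silence, fell in HA-positive against HA-negative nuclei. It was at 0, 25.3 and 39.7 CPM in empty HA-positive and at 38.3, 60.5 and 99.8 CPM in empty HA-negative libraries, lower in HA-positive nuclei of 7 of 7 mice. With g4 it was at 9.92, 22.8 and 48.9 CPM against 43.3, 56.0 and 90.4 CPM, again lower in 7 of 7. The log2 differences were -1.31 ± 0.38 (edgeR adjusted p 0.0297) and -1.18 ± 0.30 (adjusted p 0.0123). With the empty vector the call was lost without mouse 19, 20, 21 or 23, with adjusted p up to 0.122 over the alternatives and 0.00418 at the lowest. Over these fractions the striatal neuron markers also differed, with 10 markers summing to means of 253 and 290 CPM in HA-positive and 1428 and 1182 CPM in HA-negative libraries of the empty and g4 vectors, as did the 9 oligodendrocyte markers, at 91.0 and 353 against 1769 and 1905 CPM (without the library of mouse 19, at 1544 CPM, the g4 HA-positive libraries held 104 to 228), and the inhibitory neuron markers as given above. Their part in the Srgap3 and Dcc results was not tested.

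Sos1, which encodes an exchange factor for Ras and Rac that binds Robo through the adaptor Nck, was higher in HA-positive than in HA-negative nuclei of g4 cortex. It was at 92.7, 169 and 195 CPM in HA-positive and 56.4, 82.1 and 125 CPM in HA-negative libraries, higher in 7 of 7 mice (log2 difference 0.94 ± 0.19, edgeR adjusted p 0.00132). With the empty vector Sos1 was higher in 6 of 7 mice by 0.58 ± 0.22 and did not pass the test (edgeR adjusted p 0.115), and the difference between the vectors in this respect was 0.38 ± 0.29 with an edgeR adjusted p of 0.996. Ndfip1, which encodes an adaptor that brings ubiquitin ligases to Robo1, was higher in HA-positive than in HA-negative nuclei of g4 cortex, at 504 ± 81.2 against 385 ± 52.9 CPM (log2 difference 0.40 ± 0.12, edgeR adjusted p 0.0364, higher in 6 of 7 mice). With the empty vector the log2 difference between fractions was 0.25 ± 0.13 (edgeR adjusted p 0.294, higher in 5 of 7), and the difference between the vectors was 0.17 ± 0.18 (adjusted p 0.996). The g4 call of Ndfip1 was lost under 7 of 14 alternatives, with adjusted p up to 0.166, among them leaving out mouse 17, 18, 21, 22 or 23. Enah, which encodes an actin regulator of the Ena/VASP family that Robo receptors bind, was at 176 ± 35.0 against 124 ± 31.6 CPM with the empty vector (log2 difference 0.57 ± 0.19, edgeR adjusted p 0.0667) and at 173 ± 24.7 against 126 ± 19.5 CPM with g4 (0.46 ± 0.15, adjusted p 0.0509). It was higher in HA-positive nuclei of 7 of 7 mice with each vector, passed the threshold by DESeq2 and did not by edgeR.

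**Figure D5:**
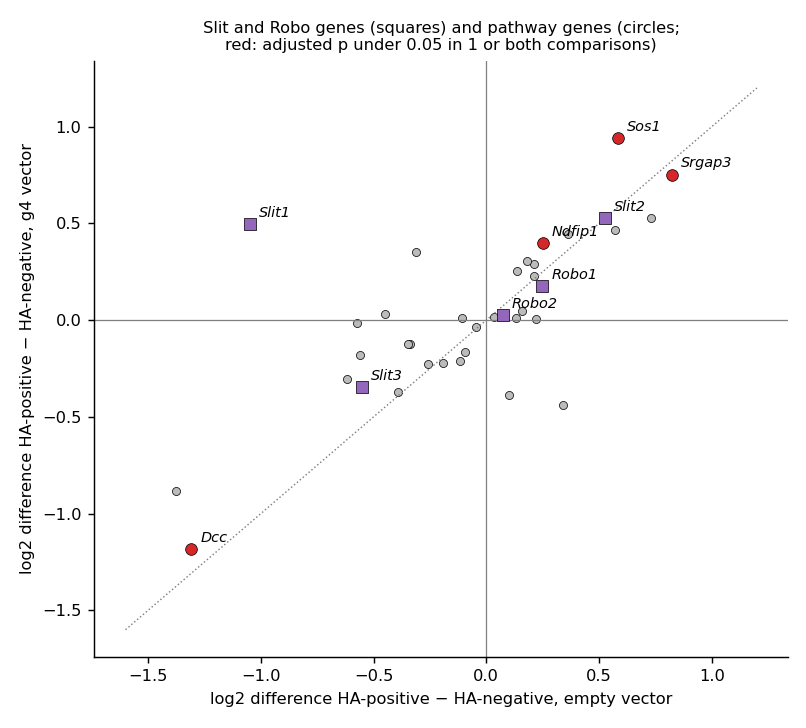
Fitted log2 difference of HA-positive minus HA-negative nuclei with the empty vector (horizontal axis) and with g4 (vertical axis) for the members and the tested pathway genes. Srgap3 lies to the upper right at 0.83 and 0.75, Dcc to the lower left at -1.31 and -1.18, and Slit1 to the upper left at -1.05 and 0.50.

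The likeness of genes to each member was measured as the Pearson r of log2 (CPM + 1) over the 28 libraries, among 5849 genes with a mean of at least 20 CPM. The genes most like Slit1 were Fdft1 (r 0.782), Spon1 (0.775) and Setdb1 (0.745), where the 99th percentile over all genes was 0.617. Those most like Slit2 were Map1b (0.773), Rnmt (0.742) and Capns1 (0.717), and those most like Slit3 were Arrdc3 (0.782), Ssr1 (0.776) and Ppp4r3b (0.773). For the receptors they were Mob1b (0.776), Chpt1 (0.766) and Sec11c (0.743) for Robo1 and Cul9 (0.764), Ppm1f (0.761) and Prkci (0.753) for Robo2. Between members, the highest r were 0.534 for Slit3 and Robo2 and 0.533 for Slit1 and Slit3, and the lowest was -0.25 for Slit1 and Robo1. The genes most like a member were picked as the highest of 5849 and the member pairs were not, so these r cannot be compared. The libraries share animals, depth and groups, so these values describe the libraries.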

How the data were processed

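Nuclear RNA of 28 libraries, 7 per group, was taken as raw counts per gene in the tables deposited by the authors, per the labels, which name the columns so. The genome build was GRCm38, per the submitters' processing notes. How reads were aligned and counted, whether by strand or by molecular identifiers, is not given in the sources used here, so reads of genes inside introns of the members cannot be assigned by strand. Cells without a value were read as 0, and 1 of 41550 entries named no gene, held 0 counts and was left out. Samples were grouped by their titles, and their descriptions tied each to its column, since for 3 animals the numbers differ by 1.

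The members and gene lists were chosen with earlier results of these data known. CPM were computed with TMM factors over all 28 libraries. Directions per mouse and overlaps between groups were counted for the members, the pathway genes, Sema3c and Plxna4, and not over all genes. Genes were tested with edgeR 4.0.16 (quasi-likelihood, two-sided, filterByExpr by group with a minimum count of 10, TMM, robust fit) in R 4.3.3, adjusted by Benjamini-Hochberg over all genes tested. The SE of a log2 difference was derived from the test, as its absolute value over the square root of the F statistic. The procedure was run on simulated independent libraries for the vectors in HA-positive nuclei and the fractions with the empty vector. Shared animals and the other comparisons were not simulated. The main fits held the groups only and no term for the animal, so libraries of a mouse were treated as independent. DESeq2 1.42.0, RLE factors, no filter, 1 fit of all groups, an animal block and leaving out libraries were alternatives. Named were all members, all pathway genes called by edgeR, and Robo3, Robo4, Srgap1, Srgap2, Srgap3 and Dcc for their roles. Of the netrin and semaphorin lists, counts and the called genes were given. Enah was named after its values were seen. The 3 genes most like each member were also named. Same-numbered libraries come from the same mouse, which pairs them, although the correlation of their deviations from the group means was only -0.13 to 0.18. Whether libraries of a mouse came from separate tissue pieces is not stated, and p-values measure the spread between these libraries. Gene positions, lengths and UTRs came from GENCODE vM21, to which 41474 gene identifiers matched.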

Additional observations from a re-analysis of the deposited data

Results flagged for a closer look

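Each of 57 groups of 7 values was examined for 1 library far from the others, and 8 had one. The groups were those of the members, Sema3c, Plxna4 and the named pathway genes except Enah, where the values were not all equal. Chance gives about 1 in 20 for normally distributed values. Values from low counts, some with many libraries at 0, depart from that, so nothing is read from the number flagged. Slit1 in the empty HA-negative library of mouse 19 was at 80.5 CPM, with the next library at 43.5. Srgap1 was at 49.6 CPM in the empty HA-positive library of mouse 17 (next 18.5) and at 35.7 CPM in the g4 HA-positive library of mouse 18 (next 15.8). Srgap2 was at 139 CPM in the empty HA-negative library of mouse 18 (next 84.5). Sos1 was at 125 CPM in the g4 HA-negative library of mouse 22 (next 84.1). Robo3 was at 34.0 CPM in the empty HA-positive library of mouse 22 (next 9.76) and at 5.64 CPM in the g4 HA-negative library of mouse 17 (next 1.89). Robo4 was at 5.67 CPM in the empty HA-negative library of mouse 22, from 3 counts, and at 0 in the other libraries.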

How the results depend on the processing

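The log2 differences of the members moved by less than 1 SD between animals in all 330 alternative fits, although those near 0 changed sign in some. This SD is a wide yardstick, and the vector difference of Slit3 in HA-positive nuclei went from 0.26 to -0.34 within it. A refit without 1 of 7 mice could hardly exceed it, so nothing is read from this count. Of 66 alternatives for genes called, 15 moved the count by over 1.5 times. In HA-positive nuclei the 3 genes called for the vectors became 1 with the animal as a replicate block, 11 with DESeq2, 28 with no filter on low counts, 8 with all groups in 1 fit and 0 without the HA-positive libraries under 10000 genes, and 1 to 5 when a mouse or library was left out. DESeq2 called 1 gene for the vectors in HA-negative nuclei. With the empty vector, the 388 genes called between fractions became 661 with no filter and 612 with all groups in 1 fit, and 251 to 371 with a mouse left out. With g4, the 401 became 218 to 507. With no filter, 3 genes were called for the difference between vector effects. Pathway genes called between fractions numbered 1 to 3 (empty vector) and 3 to 6 (g4) with a mouse or library left out, and 0 in the other comparisons. The block changed no pathway call, and it lost the call of Sema3c, whose edgeR adjusted p became 0.066. CPM per kilobase of the longest transcript, in HA-positive nuclei with empty and g4 and then in HA-negative nuclei with empty and g4, were 4.98, 7.12, 3.57 and 4.99 for Slit2, 9.08, 8.22, 7.84 and 7.29 for Robo1, and 14.3, 15.3, 14.1 and 15.1 for Robo2. The cause of these changes was not tested, except that a shorter length raises a level per kilobase. Counts of 2 to 15 per library limit Slit1 most in the empty HA-positive group.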

Other observations

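Netrins and class 3 semaphorins are the other large families of secreted axon guidance proteins beside the Slits. Of 9 netrin ligands and receptors, 5 were tested for the vectors in HA-positive nuclei, and 5 of 5 had higher values with g4 (median log2 difference 0.43, against -0.01 over all genes). By edgeR or DESeq2 0 were called, with 0 at an unadjusted p under 0.05, beside 335 of all 5011 genes. Without the g4 HA-positive library of mouse 19, whose netrin sum was the highest of its group at 353 CPM, 4 were tested, of which 3 had higher values and 1 a lower one (median 0.47). Their summed level was 208 ± 76.0 CPM in empty and 296 ± 58.6 in g4 HA-positive libraries, beside 308 ± 36.5 and 315 ± 39.7 in the HA-negative ones. Between fractions Dcc was the only netrin gene called by edgeR with either vector, and DESeq2 also called Unc5d higher in HA-positive nuclei with g4 (name given after its values were seen).

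Of 14 class 3 semaphorin ligands and receptors, 6 were tested for the vectors in HA-positive nuclei, where 1 had a higher and 5 had lower values with g4 (median log2 difference -0.21). By edgeR or DESeq2 0 were called, with 1 at an unadjusted p under 0.05, beside 335 of all 5011 genes. Plxna4, a semaphorin co-receptor, was higher in HA-positive than in HA-negative nuclei, at 191 ± 29.4 against 119 ± 34.7 CPM with the empty vector (log2 difference 0.74 ± 0.19, edgeR adjusted p 0.0117) and 209 ± 52.8 against 128 ± 29.2 CPM with g4 (0.73 ± 0.17, adjusted p 0.00462), in 6 of 7 mice with each. With g4 the call was lost without mouse 21 (adjusted p 0.0547). Sema3c, a secreted semaphorin, was at 57.7 ± 22.0 CPM in HA-positive and 24.3 ± 9.63 in HA-negative nuclei with the empty vector (1.28 ± 0.35, edgeR adjusted p 0.0193, higher in 6 of 7 mice), and this call was lost with the animal block (0.066) and without mouse 19 or 20 (0.127 and 0.105). With g4 Sema3c was at 37.4 ± 23.4 against 21.0 ± 14.6 CPM and did not pass the test (edgeR adjusted p 0.333).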
